A study of Drosophila melanogaster with 2 samples.

Results

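Drosophila genes often lie back to back, with a minus-strand and a plus-strand transcript start a short distance apart, and MTF-1 chromatin immunoprecipitation (ChIP-seq) peaks at such divergent promoters are described here. A peak was a member when its summit lay within 500 bp of at least 1 plus-strand and at least 1 minus-strand protein-coding transcript start of different genes. Of the 3587 peaks in the authors' thresholded list, 427 (11.9%) met this rule. Another 1268 peaks lay within 500 bp of protein-coding starts of 1 strand and are called one-directional, and 1892 lay away from such starts. The libraries came from whole embryos of 0 to 24 h, male and female pooled, of a transgenic fly line with stable expression of MTF-1 carrying GFP at its C terminus. There was 1 group of 2 biological replicates, numbered 2 and 4, from the same fly line, and no untagged line or other condition was analysed here. The labels name neither separate crosses nor the promoter that drives the tagged gene. In whole embryos, binding in few cells and weak binding in many cannot be told apart. Their free-text description names input controls, whereas the antibody label names MTF-1 and the deposited read-me derives every peak list from a further file shared by both, so both libraries were taken as immunoprecipitates. With 1 group and no control samples, no difference between conditions could be tested. Peaks are not replicates, so the values are given as counts, medians and 95% exact intervals that cover the counting of regions only.

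MTF-1 is a transcription factor with zinc fingers; it recognises short DNA sites called metal response elements (MREs) and drives metallothionein genes when zinc, copper or cadmium is in excess. In a divergent promoter, transcription starts on opposite strands from neighbouring core promoters that share the DNA between them, so a peak in that DNA cannot be assigned to 1 of the genes by position alone. Many such promoters in flies belong to housekeeping genes and carry the DNA replication-related element (DRE), bound by DREF, or the site of M1BP (motif 1 binding protein), rather than a TATA box.

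The DNA between the starts of 8 members shows the range of sequence at these peaks. All 8 stretches were free of annotated exons and are given on the plus strand of the dm6 assembly, from the RefSeq genome sequence. Pairs are named with the minus-strand gene first, so transcription runs outward from both ends of each stretch. Capitals mark the MRE core, TGCACNC or TGCGCNC on either strand, or the DRE, TATCGATA. The first pair of sequences comes from metallothionein promoters, where the MRE is the textbook MTF-1 site. MtnA/CG8500 spans chr3R:9784371-9784652 and MtnE/MtnD spans chr3R:20534705-20534961.
MtnA/CG8500: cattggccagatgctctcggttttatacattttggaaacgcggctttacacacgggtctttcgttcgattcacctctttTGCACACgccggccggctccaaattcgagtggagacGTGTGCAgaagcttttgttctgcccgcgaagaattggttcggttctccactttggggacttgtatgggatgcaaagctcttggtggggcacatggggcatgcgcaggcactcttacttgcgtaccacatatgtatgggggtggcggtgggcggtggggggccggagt
MtnE/MtnD: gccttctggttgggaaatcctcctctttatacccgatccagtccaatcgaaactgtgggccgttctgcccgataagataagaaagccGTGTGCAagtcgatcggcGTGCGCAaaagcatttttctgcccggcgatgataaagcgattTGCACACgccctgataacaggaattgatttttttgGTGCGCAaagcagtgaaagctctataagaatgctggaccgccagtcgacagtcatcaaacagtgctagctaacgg
MtnA and CG8500 share 2 cores, 24 and 60 bp from the summit, and both have the form TGCACAC on 1 strand or the other. MtnE and MtnD share 4 cores, 1, 17, 59 and 94 bp from the summit.

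The second set comes from strong members with no core within 50 bp of the summit and from 1 member, brm/Arl1, with a single core 1 bp from it. Nelf-E/RpL14 (chr3L:8600880-8601005) stands for the ribosomal protein promoters, and Art3/mRpS10 (chr3R:15229409-15229664), Tcs5/CHMP2B (chr3L:5139396-5139618) and CG13390/CG17294 (chr2L:8376798-8377034) stand for members that are AT-rich at the summit. brm/Arl1 spans chr3L:15982870-15983134.
Nelf-E/RpL14: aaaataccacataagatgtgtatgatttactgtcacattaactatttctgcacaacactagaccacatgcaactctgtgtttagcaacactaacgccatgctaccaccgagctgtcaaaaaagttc
brm/Arl1: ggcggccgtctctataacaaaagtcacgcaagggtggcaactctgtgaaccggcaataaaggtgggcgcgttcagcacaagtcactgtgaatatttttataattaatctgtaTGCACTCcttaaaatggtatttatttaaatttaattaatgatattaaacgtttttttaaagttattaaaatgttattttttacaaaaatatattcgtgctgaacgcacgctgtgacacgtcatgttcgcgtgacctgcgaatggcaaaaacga
Art3/mRpS10: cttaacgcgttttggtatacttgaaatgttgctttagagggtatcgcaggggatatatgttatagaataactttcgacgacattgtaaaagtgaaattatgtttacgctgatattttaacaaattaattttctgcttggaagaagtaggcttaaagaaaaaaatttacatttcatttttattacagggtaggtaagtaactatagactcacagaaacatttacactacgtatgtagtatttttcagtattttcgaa
Tcs5/CHMP2B: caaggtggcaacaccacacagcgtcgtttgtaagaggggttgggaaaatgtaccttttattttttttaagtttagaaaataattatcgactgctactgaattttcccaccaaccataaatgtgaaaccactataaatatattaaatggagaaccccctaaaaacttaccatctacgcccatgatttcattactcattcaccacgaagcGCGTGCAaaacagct
CG13390/CG17294: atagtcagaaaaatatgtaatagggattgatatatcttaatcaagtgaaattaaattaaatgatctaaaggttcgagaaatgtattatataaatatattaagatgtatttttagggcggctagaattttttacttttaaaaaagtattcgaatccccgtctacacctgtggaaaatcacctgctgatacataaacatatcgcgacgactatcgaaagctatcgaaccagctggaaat
The GC content of these stretches was 38.9% in Nelf-E/RpL14, 36.6% in brm/Arl1, 30.1% in Art3/mRpS10, 38.1% in Tcs5/CHMP2B and 30.8% in CG13390/CG17294, against 55.3% in MtnA/CG8500. Tcs5/CHMP2B has a core near the CHMP2B start, but it lies 106 bp from the summit and outside the searched window. The last sequence, Rab8/Usp32 (chr3L:19871079-19871138), shows a DRE 1 bp from the summit between starts that are close together.
Rab8/Usp32: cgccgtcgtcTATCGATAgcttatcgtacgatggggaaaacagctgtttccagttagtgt
Rab8 encodes a small GTPase of secretory traffic, and Usp32 encodes a ubiquitin-specific protease. Their shared peak had a signal of 144 and ranked 1989 of 3587.

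The strongest peak of the whole list was a divergent promoter peak, and it stood far above all other members. Signal, the authors' value per peak from the pooled reads, has no stated scale and no SD, so its levels were never compared between lists. The member at MtnA/CG8500, the promoter shared by the metallothionein gene MtnA and CG8500, had a signal of 16205. Its summit lay 143 bp from the MtnA start and 140 bp from that of CG8500. The peak ranked 1 in the thresholded list, 1 in replicate 2 and 1 in replicate 4. The next member had a signal of 1287, and the median over all 427 members was 162 (95% interval 155 to 174, quartiles 128 and 253). The peak at MtnA/CG8500 was thus 99.9 times the median member, and the next member 7.93 times. The median was 153 (148 to 157) for one-directional promoter peaks, with a highest value of 1967, and 154 for all peaks. Peaks away from starts had a median of 151 (148 to 156) and a highest value of 11844. The weakest member had a signal of 105.

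Divergent promoter peaks were 1 of the 10 strongest peaks, 23 of the 100 strongest peaks (23.0%), 80 of the 500 strongest (16.0%) and 143 of the 1000 strongest (14.3%). With the list divided at its quartiles of signal, the counts of members from the strongest to the weakest division were 132, 107, 98 and 90. One-directional promoter peaks, 35.3% of the list, were 40 of the 100 strongest and 188 of the 500 strongest, and the difference between the classes was not tested. Members were 25.2% (23.1 to 27.3) of all peaks at protein-coding promoters. The same rule applied to 14859 background regions (pooled regions under the median signal that overlapped no thresholded peak) found 285, or 1.92%, which were 11.9% (10.6 to 13.2) of the background regions at promoters. In the 3587 strongest regions of each replicate alone, the rule found 408 regions (11.4%) in replicate 2 and 454 (12.7%) in replicate 4.

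**Figure D1:**
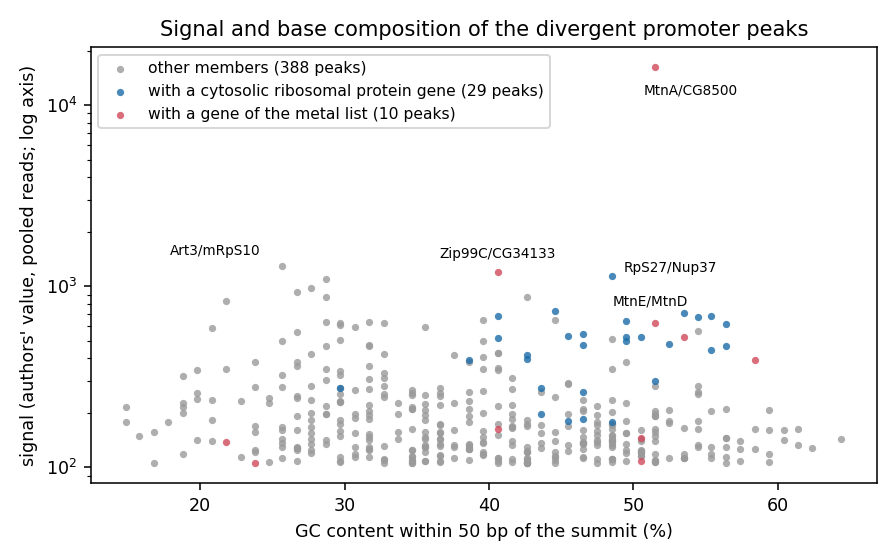
Signal of each of the 427 divergent promoter peaks (log axis) against the GC content within 50 bp of its summit, with peaks of cytosolic ribosomal protein genes in blue and of metal genes in red. MtnA/CG8500 stands alone at 16205, and most other points above 500 are either ribosomal, with a median GC content of 49.5%, or AT-rich.

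Among the 12 members of highest signal, metal genes and ribosomal protein genes stood beside AT-rich promoters of other genes. The peak between Art3, an arginine methyltransferase gene, and mRpS10, a mitochondrial ribosomal protein gene, had a signal of 1287 and ranked 42 in replicate 2 and 8 in replicate 4. Zip99C, which encodes a ZIP-family metal transporter, shared a peak of 1197 with CG34133 (ranks 25 and 20). This summit lay 10 bp from the Zip99C start and 480 bp from that of CG34133. RpS27/Nup37, a ribosomal protein gene beside a nuclear pore gene, had 1145 (ranks 6 and 52). It is the member of this set with the widest lead of replicate 2 over replicate 4.

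Of the next 6 members, all but Chro/Ssl1 were AT-rich at the summit. The peak of mRpS23/CenG1A had a signal of 1090 (ranks 39 in replicate 2 and 25 in replicate 4) and a GC content of 28.7% within 50 bp of the summit. Tcs5, a kinase gene of the tRNA-modifying KEOPS complex, and CHMP2B, an ESCRT-III gene, shared a peak of 982 (ranks 58 and 30) with a GC content of 27.7%. CG11309/CG7632 had 935 (ranks 165 and 23) with 26.7%. In each of these 3 members replicate 4 gave the better rank. Chro, which encodes the chromodomain protein Chromator, and Ssl1, a TFIIH subunit gene, shared a peak of 875 (ranks 88 and 38) with a GC content of 42.6%. CG5611/Mtl had 873 (ranks 87 and 40) with 28.7%. CG13390/CG17294 had 834 (ranks 204 and 33) with 21.8%. Replicate 4 again ranked all 3 higher. Nelf-E, a subunit gene of negative elongation factor, shared a peak of 733 with RpL14 (ranks 68 and 83), and Ripalpha shared a peak of 710.3 with RpL7 (ranks 84 and 78).

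In all, 38 members had a signal over 500. Of these, 13 belonged to cytosolic ribosomal protein genes and 4 to genes of the metal list, which leaves 21 others. The 13 ribosomal peaks had a median GC content of 49.5% at the summit, and 11 of them ranked better in replicate 2. The 21 others had a median of 29.7% (range 20.8% to 54.5%), and 18 of them ranked better in replicate 4. An MRE core lay within 50 bp of the summit in 4 of the 38 and in 1 of the 21 others. The share was 9.84% over all members and 11.4% over all peaks.

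The 427 members covered 420 gene pairs and 840 genes, each counted as the nearest start on its strand. Chromosome arm 3R held 125, 3L 91, 2L 85, 2R 85, X 41 and chromosome 4 held 0. In 413 members the nearest starts were head to head, with a median distance of 283 bp (quartiles 172 and 391). In the remaining 14 they were crossed, so that the transcripts from these starts overlap at their 5′ ends. The order is that of the starts nearest each summit, so a pair with several annotated starts can hold both orders. Crossed pairs of the highest signal were Fer1HCH/Fer2LCH with 523, CG4741/Adck1 with 382 and CG31808/Cyt-c-d with 306, and these were chosen after their values were seen. Among the closest head-to-head pairs were CG9921/Dsp1 (12 bp, signal 151) and E(z)/Cnep1r2 (16 bp, 272), where E(z) encodes the histone H3 lysine methyltransferase of Polycomb repressive complex 2. The 3 widest were CG16956/CG42784 (856 bp, signal 280.4), spirit/CG12065 (713 bp, 227) and app/CG32100 (687 bp, 192). The peaks of these widest pairs were all stronger than the median member.

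The summit itself lay between the nearest starts in 322 of the 427 members (75.4%, 71.0 to 79.4), so the label of peaks between promoters holds for that share, and in the other 105 the summit lay outside the pair. The nearest start was a median of 61 bp from the summit (quartiles 27.5 and 104) and the nearest start of the other strand 213 bp. In one-directional promoter peaks, which have fewer starts in reach, the median was 88.5 bp. The share of summits between head-to-head starts was lowest, at 42.1%, for distances under 100 bp, where the stretch leaves least room for a summit. It was 70.9% from 100 to 200 bp, 86.2% from 200 to 300 bp, 73.9% from 300 to 400 bp and 87.5% from 400 to 600 bp, so it did not increase at every step. The summit was nearer the plus-strand start in 230 members and nearer the minus-strand start in 197.

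The members just inside the 500 bp limit, by the farther start, were CG8173/raskol at 497 bp (signal 119), Nepl19/Nepl20 at 499 bp (160.1) and Ifrd1/CG8814 at 500 bp (112). Just outside lay, among others, CG32066/CG8003 at 503 bp (185) and CG13398/Akap200 at 504 bp (113). Of these 5 named peaks, the strongest lay outside the limit.

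In head-to-head pairs with starts at least 200 bp apart and the summit between them, the position of the summit differed between the replicates. In replicate 2 the summit lay in the middle tertile of the stretch in 48 of 225 regions (21.3%, 16.2 to 27.3). In replicate 4 it did so in 143 of 283 regions (50.5%, 44.5 to 56.5). The thresholded members fell between them, at 93 of 251 (37.1%, 31.1 to 43.4), and the background regions were at 32 of 117 (27.4%). The intervals of the replicates do not overlap, but they cover the counting of regions only and are no test between the libraries. These summits had a median GC content of 41.6% in replicate 2, against 29.7% in replicate 4. The regions had a median width of 524 bp in replicate 2, against 344 bp in replicate 4. The part of base composition and of region width in the difference was not tested.

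**Figure D2:**
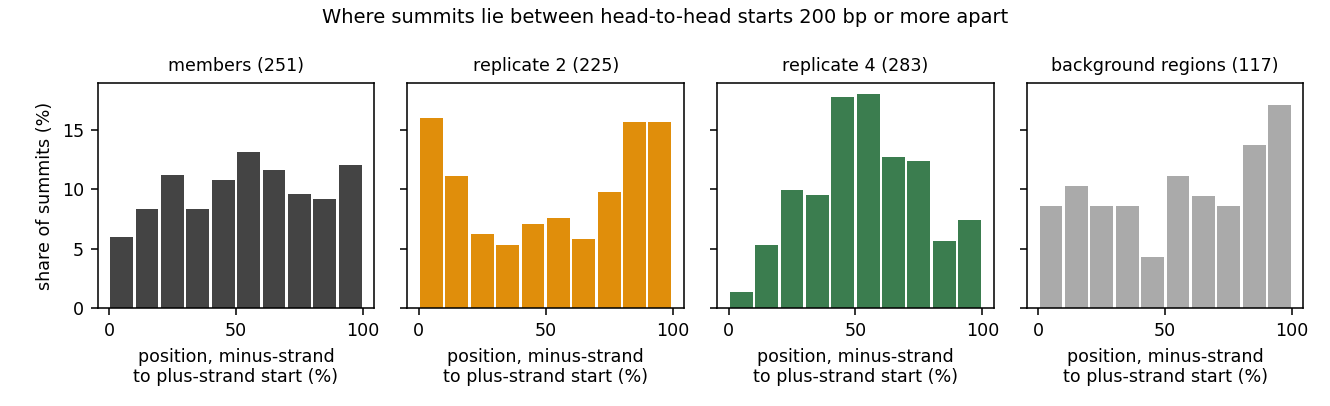
Share of summits (%) in 10 equal bins of the stretch from the minus-strand start (0%) to the plus-strand start (100%), for head-to-head starts 200 bp or more apart, in the members, each replicate's strongest regions and the background regions. Replicate 2 summits collect at the ends, near the starts, and replicate 4 summits in the middle.

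The middle of these stretches was AT-rich with or without a peak. At the midpoint of head-to-head pairs 200 to 300 bp apart, the median GC content within 50 bp was 25.7% both in the 128 pairs with a peak and in the 403 without. For pairs 300 to 400 bp apart it was 27.7% in both. At the summits, the median was 39.6% over all members, 36.6% where the summit lay between the starts and 43.6% where it lay outside. One-directional summits had 44.6%. The same windows moved 500 bp to the left or right of the members' summits had 49.5% on each side.

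Members near a start and members farther away differed in composition and in replicate rank. In the 177 members with a summit under 50 bp from a start, the median GC content was 46.5% and the median ranks were 1591 in replicate 2 and 1970 in replicate 4. Of these, 107 ranked better in replicate 2 and 70 in replicate 4. In the 250 members at 50 bp or more, the median GC content was 34.7% and the median ranks were 2129 and 1250. Of these, 71 ranked better in replicate 2 and 177 in replicate 4. The median signal was 162 near a start and 163 away from it.

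The same opposition appeared when members were divided by GC content at 39.6%. Of the 217 members at or under it, 171 ranked better in replicate 4 and 45 in replicate 2, with median ranks of 991 and 2138. Of the 210 members over it, 133 ranked better in replicate 2 and 76 in replicate 4, with median ranks of 1626 in replicate 2 and 2155 in replicate 4. The median signal was 182 at the lower GC content and 155 at the higher. The read depth of the libraries is unknown, and its part in these ranks was not tested.

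**Figure D3:**
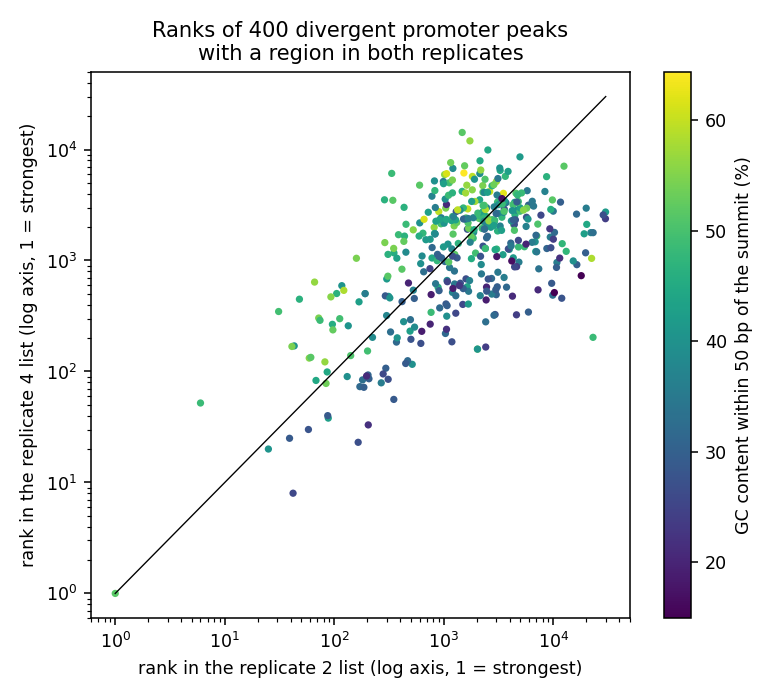
Rank in replicate 2 (horizontal axis) and in replicate 4 (vertical axis; both log axes, 1 is strongest) for the 400 members with a region in both lists, coloured by GC content within 50 bp of the summit. AT-rich members (dark) lie mostly under the diagonal, on the side of a better rank in replicate 4, and GC-rich members (light) mostly above it.

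Among the 3587 strongest regions of both replicates were 259 of the 427 members (60.7%, 55.8 to 65.3), against 59.0% of all peaks, so members were found in both about as often as other peaks. Another 49 members were among the strongest of replicate 2 only, 106 of replicate 4 only and 13 of neither. Replicate 2 had no overlapping region for 20 members that replicate 4 covered, replicate 4 had none for 6 that replicate 2 covered, and 1 member had none in either. The members had a median rank of 1700 in replicate 2, against 1454 in replicate 4, where one-directional promoter peaks had 1666 and 1950. Over the 400 members with a region in both lists, Spearman's rho of the ranks was 0.448, given as a description, since the thresholded list was made from these same lists. The members whose ranks differed most were Myo95E/TBC1d7 (29843 in replicate 2 and 2380 in replicate 4), CG15535/mRpS18C (29913 and 2733) and CG6321/Blos2 (28470 and 2575). All 3 were weak, with signals of 125, 111 and 108.

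Of the 13 gene groups counted, cytosolic ribosomal proteins had the most genes at members. Groups were defined by gene symbols alone, so genes of a family that carry other symbols were not counted. Of 53 cytosolic ribosomal protein genes with a divergent partner (an opposite-strand start within 1000 bp), 28 were the nearest start of a member (52.8%), against 16.3% of all 5141 genes with such a partner. In the regions of each replicate alone the count was 29 of 53 in replicate 2 and 28 of 53 in replicate 4. The shares of all partnered genes there were 14.8% and 17.4%. The summit lay nearer the ribosomal protein gene's start than its partner's in 28 of 28 genes, at a median of 16.5 bp from it and 276 bp from the partner, and under 50 bp from it in 25. The strongest were RpS27, RpL14 and RpL7, described above. Ribosomal protein genes made up 29 member peaks, with a median signal of 481 (quartiles 299.6 and 618), against 157 for the 398 other members. Of the 29, 28 were among the strongest regions of both replicates (96.6%), against 58.0% of the other members. Pooled signal and replicate ranks come from the same reads, so these contrasts are not independent, and members of like signal were not compared. Replicate 2 gave the better rank in 21 of the 29 and replicate 4 in 8. An MRE core lay within 50 bp of the summit for 2 of the 28 genes, a DRE for 6 and an M1BP site for 2.

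Mitochondrial ribosomal protein genes, which encode the separate ribosome of the organelle, did not share this arrangement. Of 58 with a partner, 12 were the nearest start of a member (20.7%). The summit was nearer the partner in 11 of the 12, at a median of 51.5 bp from the partner and 148 bp from the mitochondrial gene. The strongest were mRpS10 (1287), mRpS23 (1090) and mRpL23, whose peak shared with CG9004 had a signal of 587 and ranked 197 in replicate 2 and 91 in replicate 4. The median signal of the 12 was 162.

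The metal list gave 11 of 24 genes with a partner (45.8%), in 10 peaks. The replicate regions alone gave 10 of 24 in replicate 2 and 11 of 24 in replicate 4, against 14.8% and 17.4% of all partnered genes. Besides MtnA and Zip99C, it held the metallothionein pair MtnE/MtnD, with a signal of 623 and ranks 61 in replicate 2 and 134 in replicate 4. The ferritin pair Fer1HCH/Fer2LCH, which encodes the heavy and light chains of the iron store, had peaks of 523 and 162. The nearest starts were crossed by 56 bp at the first summit and head to head, 98 bp apart, at the second. Both of these peaks overlapped the same region in each replicate, of rank 2026 in replicate 2 and 159 in replicate 4. ATP7, the copper pump gene, shared a peak of 389.7 with CG10347 (ranks 122 and 538), and the summit lay 9 bp from the ATP7 start. Each of these 3 pairs ranked 159 or better in at least 1 replicate for its stronger peak.

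The other members of the metal list were weak. The zinc transporter gene foi shared a peak of 145 with GstO1, a glutathione S-transferase gene (ranks 7198 and 2127), and the summit was 111 bp from the foi start. The transferrin gene Tsf2 shared a peak of 138 with CG34242 (ranks 11414 and 1051). Gclm, the modifier subunit gene of glutamate-cysteine ligase, shared a peak of 109 with CG17625 (ranks 2374 and 5391). Sod2, the mitochondrial superoxide dismutase gene, shared a peak of 106 with Arp53D and had no region in replicate 2 and rank 2636 in replicate 4. Tsf2 and Sod2 had GC contents of 21.8% and 23.8% at the summit, while foi and Gclm both had 50.5%. None of these 4 had an MRE core within 50 bp of the summit. Nor did the stronger metal peaks at Zip99C/CG34133, Fer1HCH/Fer2LCH and CG10347/ATP7, and the share over all members was 9.84%.

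Most other groups were close to the 16.3% of all partnered genes. Translation factors gave 5 of 26 (19.2%), with the highest signals at eIF1 (644, opposite RpL28), eIF4EHP (498) and eIF3h (171). Aminoacyl-tRNA synthetases gave 4 of 23 (17.4%), led by GluProRS (170.4), ThrRS (155) and IleRS (154), with the summit nearer the synthetase start in all 4. Respiratory chain genes with the symbols ND, Sdh, UQCR, COX or ATPsyn gave 9 of 44 (20.5%), led by ND-ASHI (347), ATPsynE (147) and COX5A (147). RNA polymerase and Mediator genes with the symbols Polr or MED gave 6 of 38 (15.8%). Among these symbols MED30 (257), Polr3E (231) and MED27 (196) had the highest signals. In these 4 groups only the peak shared by eIF1 and RpL28 had a signal over 500.

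Vacuolar ATPase subunits, which acidify organelles, gave 4 of 14 (28.6%), led by Vha100-2 (247), Vha36-1 (217) and Vha44 (163). Basal transcription factors gave 3 of 17 (17.6%), which were TfIIA-L (173), Taf5 (129.7) and TfIIB (117). Genes named for Rab GTPases gave 3 of 19 (15.8%), which were Rab8 (144), Rab3GAP1 (125), a subunit gene of a Rab3-activating protein rather than a GTPase, and Rab30 (106). Replication genes with the symbols Mcm, Orc, PolA or PolE gave 1 of 11, Mcm2 (129). Kinesin genes with the symbol Klp gave 1 of 5, Klp31E (110.2). Members with replication or kinesin genes under other symbols are not in these counts. Of 26 partnered genes with the proteasome symbols Prosalpha, Prosbeta, Rpn or Rpt, 0 were the nearest start of a member.

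Over the genome, genes with a divergent partner had a peak near a start more often than genes without. Of 13945 protein-coding genes, 1992 (14.3%) had a summit within 500 bp of a start. Among the 5141 genes with a divergent partner the share was 22.1% (21.0 to 23.3), and among the 8804 without it was 9.71% (9.10 to 10.3). A gene with many annotated starts covers more DNA, but among genes with 1 start the shares were still 17.2% (15.9 to 18.4) with a partner and 6.04% (5.48 to 6.63) without. A peak near 1 start of a pair counts for both genes when they lie close, so the paired genes are not independent of each other. The window of a partnered gene can also hold the promoter of its partner, so the count itself can raise the share of partnered genes. How much of the difference this makes was not tested.

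Counted as pairs, 469 of 2720 (17.2%, 15.8 to 18.7) had a single summit within 500 bp of a start of each gene. The share was 24.1% for head-to-head starts 200 to 300 bp apart and 24.9% for 300 to 400 bp, against 18.7% for starts under 100 bp apart and 18.6% for 100 to 200 bp. From 400 to 600 bp it was 14.4%, and from 600 to 1000 bp it was 2.40%. The fall at wide distances follows in part from the rule, since a summit has less room to be within 500 bp of both starts. Of 104 crossed pairs, 22 had a peak (21.2%).

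**Figure D4:**
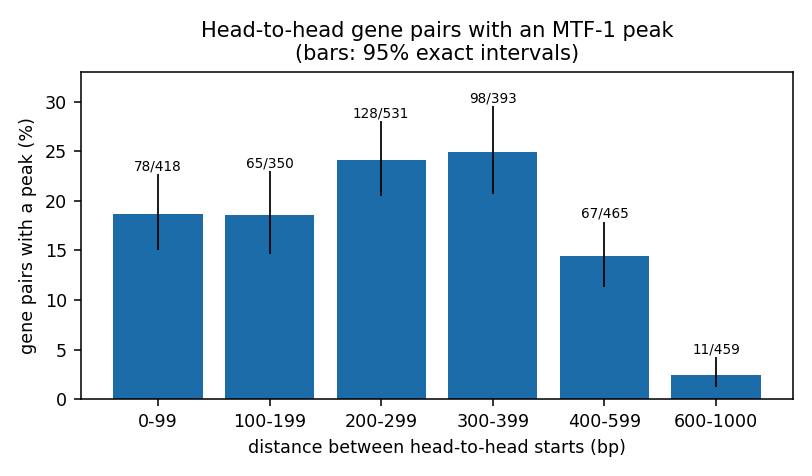
Share of head-to-head gene pairs with a peak (%) by the distance between their starts (bp), with 95% exact intervals and the counts above each bar. The share is highest from 200 to 400 bp and lowest from 600 to 1000 bp, where the rule leaves least room for a summit.

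The MTF-1 site itself was found at members about as often as at all peaks. An MRE core lay within 50 bp of the summit in 42 of the 427 members (9.84%, 7.18 to 13.1), against 11.4% of all peaks, 13.6% (11.8 to 15.7) of one-directional promoter peaks and 6.32% of the divergent background regions. In windows 500 bp to the left and right of the members' summits, 88 of 854 (10.3%) held a core. Those windows had a median GC content of 49.5% on each side, against 39.6% at the summits. The part of this composition in the core shares was not tested. The replicates differed, with 58 of 408 divergent regions (14.2%) in replicate 2 and 31 of 454 (6.83%) in replicate 4. These regions had a median GC content of 44.1% in replicate 2, against 33.7% in replicate 4, and its part in the difference was not tested. The median signal was 161 with a core and 163 without. The form TGCACAC was found in 9 members and TGCGCAC in 5.

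Beside MtnA/CG8500, Ripalpha/RpL7 and MtnE/MtnD, the members of highest signal with a core were tank/CG12194 (signal 654, ranks 131 in replicate 2 and 90 in replicate 4), mrva/CG42307 (381, 191 and 503) and brm/Arl1 (365, 1183 and 185). The gene brm encodes the ATPase of the Brahma remodelling complex, and Arl1 encodes a Golgi GTPase. After them came Trmt6/Ent2 (347, 764 and 341), CG1275/Elp5 (347, 1062 and 315), CG16956/CG42784 (280.4, 414 and 835) and Sgf29/RpL29 (260.2, 309 and 1135). Trmt6 encodes a tRNA methyltransferase subunit, Ent2 a nucleoside transporter, Elp5 an Elongator subunit and Sgf29 a SAGA subunit. Ripalpha/RpL7 and MtnE/MtnD had 2 cores each within 50 bp, and the other 8 of these 10 had 1. No single replicate led throughout: replicate 2 ranked mrva/CG42307 higher and replicate 4 ranked brm/Arl1 higher.

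The sites of the divergent promoter factors DREF and M1BP were found at members more often than at all peaks, and at similar shares in background regions of the same architecture. A DRE lay within 50 bp of the summit in 22 members (5.15%, 3.26 to 7.70), against 1.56% of all peaks and 2.29% (1.54 to 3.27) of one-directional promoter peaks. The M1BP site, GGTCACAC, lay there in 25 members (5.85%, 3.82 to 8.52), against 1.37% of all peaks and 1.66% (1.03 to 2.52) of one-directional ones. The divergent background regions held a DRE in 5.26% and an M1BP site in 4.91%. The windows 500 bp away held a DRE in 4 of 854 (0.468%) and an M1BP site in 6 of 854 (0.703%). The M1BP share rested on the settings: it was 2.83% with a 250 bp reach and 3.35% in the stronger part of the list, and 6.37% and 3.08% in the regions of replicates 2 and 4. The DRE share was 7.11% in replicate 2 and 3.74% in replicate 4.

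Both sites were found mostly at summits near a start. A DRE was present in 16 of the 177 members under 50 bp from a start (9.04%) and in 6 of the other 250 (2.40%). For the M1BP site the counts were 21 (11.9%) and 4 (1.60%), and for the MRE core 19 (10.7%) and 23 (9.20%). The DRE lay between the starts in 20 of 22 members, the M1BP site in 19 of 25 and the MRE core in 20 of 42. Of all members, 75.4% had the summit itself between the starts. Head-to-head starts under 100 bp apart, which leave least room between them, held 14 of the 42 members with a core. They held 4 of the 22 with a DRE and 3 of the 25 with an M1BP site. The part of start distance in these counts was not tested. Members with an M1BP site had a median signal of 128, against 163 without, and 20 of the 25 ranked better in replicate 2. Their median ranks were 1506 in replicate 2 and 3042 in replicate 4. In 3 members an MRE core and an M1BP site lay in the same window, in 2 a core and a DRE, and in 1 a DRE and an M1BP site. None of these sites was present in 344 members (80.6%).

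Other promoter words were searched in the same windows. CGATA, the core of the site of the insulator protein BEAF-32, was present in 94 members (22.0%), against 14.9% of all peaks and 28.4% of divergent background regions. Every DRE contains CGATA, so these counts overlap. The E-box CAGCTG was present in 41 members (9.60%), against 6.13% of all peaks and 10.2% of divergent background regions. TATAAA was present in 72 (16.9%), against 15.0% of all peaks and 11.2% of divergent background regions, with 11.3% in replicate 2 and 24.7% in replicate 4. GAGAG, the GAGA factor word, was present in 40 (9.37%, 6.78 to 12.5), against 15.8% of all peaks and 19.8% (17.6 to 22.1) of one-directional ones, while the divergent background regions had 9.82%. The GAGAG share was 14.7% in the divergent regions of replicate 2 and 9.03% in those of replicate 4. A match is a description of the letters and does not show binding.

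**Figure D5:**
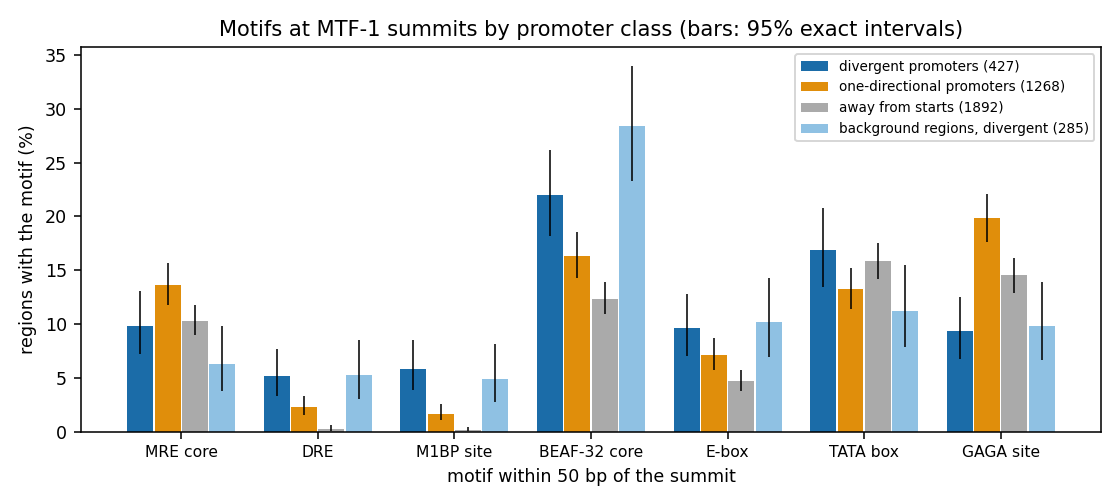
Share of regions (%) with each of 7 motifs within 50 bp of the summit, for divergent promoter peaks, one-directional promoter peaks, peaks away from starts and divergent background regions, with 95% exact intervals. The DRE and M1BP site are near 5% in both divergent sets, and GAGAG is at 9.37% in members against 19.8% at one-directional promoters.

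The whole stretch between head-to-head starts 100 to 600 bp apart was also searched. The intervals of pairs with and without a peak overlapped for the MRE core, the DRE and the M1BP site, which does not show equal shares. The MRE core was present in 80 of 358 pairs with a peak (22.3%, 18.1 to 27.0) and in 245 of 1381 without (17.7%, 15.8 to 19.9). The DRE was present in 17.9% of pairs with a peak and 18.1% without. The M1BP site was present in 12.8% (9.56 to 16.8) and 8.18% (6.79 to 9.75).

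A few pairs carried more than 1 member. Separate summits were called at 7 pairs, each contributing 2 members, among them, named after their values were seen, CG5823/P5cr-2, Fer1HCH/Fer2LCH, GluProRS/AP-1sigma, M1BP/CG8202, Max/CG42374 and mrva/CG42307. The genes for the promoter factors DREF and M1BP were themselves among the members, which was noticed after their values were seen. Dref shared with RpL13 a peak of signal 519 that ranked 134 in replicate 2 and 258 in replicate 4. Its summit lay 7 bp from the RpL13 start and 94 bp from the Dref start. M1BP shared with CG8202 peaks of 134 and 111.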

How the data were processed

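Peak lists of MTF-1 ChIP-seq from 2 replicates were used. Per the deposited read-me, the authors called 30000 regions of peaks and background in each replicate and in the pooled alignments on dm6, and derived the thresholded list from these by irreproducible discovery rate. For the aligner, peak caller, threshold and read numbers the entry is "not given in the sources used here", so depth is unknown. The signal value and the −log10 q-value of each region are the authors' deposited values; the second was not used. Signal was compared within 1 list only. Columns of samples of other series numbered 0.

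Protein-coding starts came from Ensembl release 115 (BDGP6.54, the dm6 assembly), and the sequence from RefSeq; 0 regions lay beyond a chromosome end. A member's replicate rank is that of the best-ranked replicate region overlapping it by at least 1 bp. Where members are counted by their better rank, those with a region in 1 list only count for that list. Median ranks cover only members with a region in the list. Motifs were searched on both strands of the 101 bp around each summit. Intervals are 95% exact Clopper-Pearson intervals for shares and order-statistic intervals for medians. The scripts (Python 3.11.15, numpy 2.4.6, pandas 2.3.3, scipy 1.17.1, matplotlib 3.10.9) were tested on simulated data with known answers. No hypothesis test was run, as regions are not replicates.

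The genes named are those of the 12 strongest members, the 10 strongest with an MRE core, all with a metal gene, the 3 strongest of each group, the 3 most different in rank, the 3 on each side of the 500 bp limit, and the 3 closest and 3 widest pairs; a few genes that the rule names are not reported here. Crossed pairs, pairs with 2 members and genes of promoter factors were named outside this rule, after their values were seen. The members and lists were chosen with earlier results of these data known. Alternatives were other reaches, windows, overlaps, a stricter list, outermost starts and each replicate alone.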

Additional observations from a re-analysis of the deposited data

How the results depend on the processing

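The share of peaks at divergent promoters (11.9%) was 6.89% with a reach of 250 bp (247 members), 17.7% with 1000 bp, 13.3% in the 1793 strongest peaks and 10.8% with only the outermost start of each gene. The share of pairs with a peak (17.2%) was 10.4% at 250 bp and 23.7% at 1000 bp, and that of genes without a partner (9.71%) was 7.84%, 11.7% and, with outermost starts, 8.35%. Summits between the starts (75.4%) were 67.0% at 1000 bp and 65.8% with outermost starts. The M1BP share (5.85%) was 2.83% at 250 bp and 3.35% in the strongest peaks, where the median signal was 236 in place of 162. Motif windows of 25 bp on each side gave 4.68% for the MRE core, 2.34% for the DRE and 2.58% for the M1BP site, and windows of 100 bp gave 19.2%, 10.3% and 11.2%; longer windows hold more matches by construction. For the other changes the cause was not tested. With 1 replicate left out, the share of members ranged from 11.4% to 12.7%, the MRE core from 6.83% to 14.2%, the DRE from 3.74% to 7.11%, the M1BP site from 3.08% to 6.37%, summits between starts from 68.9% to 75.6%, pairs with a peak from 15.7% to 18.3% and genes without a partner from 9.21% to 9.54%. Stricter overlaps left 228 and 219 of the members in both replicates, in place of 259. No paired analysis was possible because there is 1 group only. Read depth is unknown, so no interval covers the sampling of reads.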
